A study of Mus musculus with 8 samples.

Results

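Genes that mark blood vessel endothelium were followed in tumour cells sorted from mouse skin squamous cell carcinoma (SCC), a cancer of the keratinocytes. The set holds 9 genes, Pecam1, Cdh5, Tie1, Egfl7, Cldn5, Tek, Esam, Robo4 and Emcn, out of 17097 measured. All were found by symbol in the platform annotation, with 12 of 45037 probe sets. They were chosen by name after earlier results of these arrays had shown endothelial transcripts that differed between the tumour stages, so their levels and stage differences are given as a description. Of the fit to all genes, the stage calls are printed for the 9 as counts from which nothing is read. The lineage term, which the choice did not use, is given as a test. The interaction compares the stage differences within lineages that were in view when the genes were chosen. Its values for the 9 are therefore a description.

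The study compared poorly differentiated SCC (PD-SCC, which the labels write as PD/S-SCC) with well differentiated SCC (WD-SCC), on 8 Affymetrix arrays, 4 per stage. The tumours arose spontaneously or after DMBA-TPA treatment in K14-HPV16 mice of strain FVB/C57/Bl6, in which the keratin 14 promoter drives papillomavirus genes in basal keratinocytes. They were grafted orthotopically into nude mice and passaged, which gave 3 lineages seen at both stages. PD-SCC arrays came from OT7 (2 arrays), OT14 (1) and OT15 (1), and WD-SCC arrays from the same lineages in the same numbers. All groups share the transgene and the nude host, whose vessels can grow into a graft. The labels do not say which tumour was spontaneous or induced, nor whether the 2 OT7 arrays of a stage are separate tumours. A p-value here therefore measures array-to-array spread, part of which may be technical. Before sorting, the labels say, cell suspensions were freed of haematopoietic and endothelial cells, and cells carrying CD34 and α6-integrin were then collected. Vessel endothelium itself carries both of these surface proteins.

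Endothelial cells line vessels and hold together through adhesion molecules at their contacts. VE-cadherin (Cdh5) and PECAM-1 sit at these contacts, claudin-5 seals them, and the receptors Tie1 and Tie2 (Tek) respond to angiopoietins that steady or loosen the vessel wall. In skin tumours these vessels belong to the stroma and not to the keratinocytes.

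Each deposited value is a log2 RMA expression level, and the arrays ranged from 2.40 to 13.2 with medians of 3.66 to 3.77. An array's detection level was taken as the highest of its 15 bacterial control probe sets for which no RNA had been spiked. This control was 3.61 to 3.81 on PD-SCC arrays and 3.82 to 4.37 on WD-SCC arrays (means 3.69 ± 0.09 and 4.11 ± 0.22, SD, n = 4 each). Every PD-SCC array was below every WD-SCC array (exact two-sided permutation test, p = 0.0286, the smallest that 4 against 4 arrays allow), so a gene near the control is held to a higher bar in WD-SCC. Between 55.5% and 63.7% of genes exceeded it on PD-SCC arrays and between 45.2% and 58.2% on WD-SCC arrays.

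The sort markers went with the labels on 7 of 8 arrays. Cd34 was 6.75, 7.40, 7.96 and 8.72 in PD-SCC (OT7 replicate 1, OT7 replicate 2, OT14, OT15, the order used below for this stage). In WD-SCC it was 7.0, 6.72, 6.87 and 3.58 (the unnumbered OT7 array, OT7 replicate 2, OT14, OT15, likewise kept below). The OT15 WD-SCC value was below that array's control of 4.37, against the label of a CD34-sorted sample. Itga6, the α6-integrin gene, was 6.67, 6.14, 7.14 and 7.85 in PD-SCC, against 8.15, 7.99, 7.54 and 5.32 in WD-SCC, and was lowest on the same OT15 array. The stage differences of the 9 genes and the counts of calls are therefore also given without lineage OT15.

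Promoters that hold a short word around GGAA are shown because endothelial promoters are known for binding ETS family transcription factors, whose sites centre on GGAA. RefSeq promoter sequences (GRCm38.p6, 250 bases before to 50 bases after a start site) were matched for 6 of the 9 genes. The word AGGAAG or its reverse complement CTTCCT, on either strand, is in capitals, and it occurred in 35.35% of 32851 promoters of this length. It occurred in 5 of 8 promoters of these genes, covering Tie1, Egfl7, Emcn and Robo4 but not Tek or Cldn5. Egfl7 has 3 starts among the 8 promoters, of which the first and second hold the word and the third does not. The 4 sequences below were taken for their matches and not for their levels. A match describes letters and not a bound site. The windows lie on the minus strand at chr4:118489800-118490099 for Tie1 and on the plus strand for the others, at chr2:26583615-26583914 for the second start of Egfl7, at chr9:37401722-37402021 for Robo4 and at chr3:137340828-137341127 for Emcn.
Tie1: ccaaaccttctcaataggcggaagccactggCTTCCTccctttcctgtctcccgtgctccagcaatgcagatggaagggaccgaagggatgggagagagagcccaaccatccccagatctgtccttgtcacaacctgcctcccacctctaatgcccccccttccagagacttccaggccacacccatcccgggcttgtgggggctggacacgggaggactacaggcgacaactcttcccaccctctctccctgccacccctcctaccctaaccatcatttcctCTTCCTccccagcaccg
Egfl7: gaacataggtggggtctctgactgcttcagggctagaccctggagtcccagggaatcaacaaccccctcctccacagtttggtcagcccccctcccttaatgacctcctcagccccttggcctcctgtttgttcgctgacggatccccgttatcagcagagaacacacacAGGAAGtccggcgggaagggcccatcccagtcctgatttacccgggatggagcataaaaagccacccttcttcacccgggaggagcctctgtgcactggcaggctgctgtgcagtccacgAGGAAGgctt
Robo4: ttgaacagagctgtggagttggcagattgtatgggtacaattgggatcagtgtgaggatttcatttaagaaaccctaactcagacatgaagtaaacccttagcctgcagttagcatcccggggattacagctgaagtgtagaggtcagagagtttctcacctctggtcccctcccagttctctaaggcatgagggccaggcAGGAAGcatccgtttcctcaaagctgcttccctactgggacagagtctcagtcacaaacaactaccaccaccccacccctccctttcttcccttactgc
Emcn: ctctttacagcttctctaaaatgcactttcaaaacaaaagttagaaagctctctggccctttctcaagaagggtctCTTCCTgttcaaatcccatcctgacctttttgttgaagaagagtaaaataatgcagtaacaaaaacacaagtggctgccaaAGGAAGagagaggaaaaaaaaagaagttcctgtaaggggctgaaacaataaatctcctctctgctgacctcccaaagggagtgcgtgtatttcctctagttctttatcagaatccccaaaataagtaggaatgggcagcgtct

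Of the 12 probe sets of the 9 genes, 4 to 7 exceeded the control on PD-SCC arrays and 6 to 11 on WD-SCC arrays. Counted as single readings, 23 of 48 exceeded it in PD-SCC and 37 of 48 in WD-SCC. The excess came from the OT7 replicate 2 and OT14 WD-SCC arrays, with 11 probe sets above on each, and from the OT15 WD-SCC array with 9. The unnumbered OT7 WD-SCC array had 6, within the PD-SCC range. As the RNA comes from many cells at once, fewer endothelial cells and less of these RNAs per cell cannot be told apart.

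**Figure D1:**
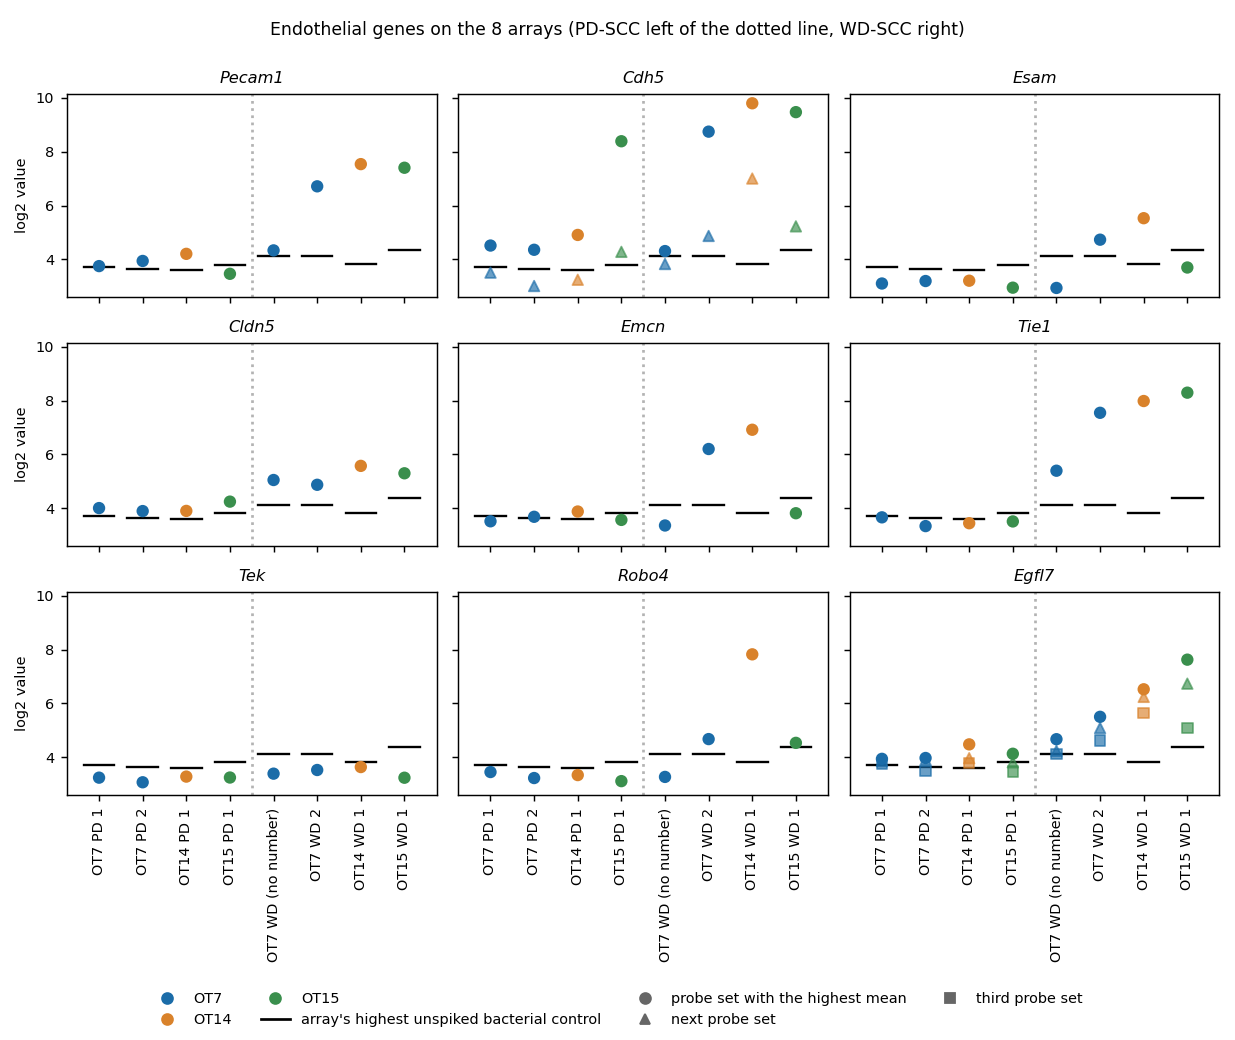
Log2 value of each probe set of the 9 endothelial genes on the 8 arrays, PD-SCC left of the dotted line and WD-SCC right, coloured by lineage; black bars mark each array's highest unspiked bacterial control (3.61 to 4.37). OT7 replicate 2, OT14 and OT15 WD-SCC arrays carry the high values, and the unnumbered OT7 WD-SCC array lies close to the PD-SCC arrays for most genes.

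Cdh5, VE-cadherin, set the OT15 PD-SCC array apart on both of its probe sets. The probe set with the higher mean read 4.52, 4.36, 4.91 and 8.39 in PD-SCC, against 4.31, 8.75, 9.80 and 9.47 in WD-SCC. No other gene of the 9 had a PD-SCC value above 4.48, and the lowest of its 8 values was the unnumbered OT7 WD-SCC array. The stages overlapped, with a lineage-adjusted difference of -2.54 ± 1.10 (PD-SCC minus WD-SCC, log2 ± SE, here and below). The second probe set read 3.51, 3.01, 3.25 and 4.28 in PD-SCC, against 3.83, 4.87, 7.0 and 5.23 in WD-SCC. It too was highest on OT15 among PD-SCC arrays, and its difference was -1.72 ± 0.55.

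Pecam1, which encodes the adhesion molecule PECAM-1 of endothelium, platelets and leukocytes, read 3.75, 3.94, 4.21 and 3.47 in PD-SCC, against 4.34, 6.71, 7.54 and 7.40 in WD-SCC. All 4 WD-SCC arrays lay above all 4 PD-SCC arrays, but the unnumbered OT7 array did so by little. The difference was -2.66 ± 0.65. The OT15 PD-SCC array, high for Cdh5, had the lowest Pecam1 value and lay below its control of 3.81.

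Cldn5, the claudin of endothelial tight junctions, varied least between arrays of a stage among the genes of the set above the control on all 8 arrays. It read 4.01, 3.90, 3.91 and 4.25 in PD-SCC, against 5.05, 4.87, 5.58 and 5.30 in WD-SCC. The stages did not overlap, the unnumbered OT7 WD-SCC array was no lower than OT7 replicate 2, and the difference was -1.19 ± 0.15. Set against each array's control, the difference was -0.76 ± 0.19.

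Esam, an adhesion molecule of endothelial junctions and platelets, was seen on 2 arrays alone. It read 3.11, 3.20, 3.21 and 2.95 in PD-SCC, against 2.94, 4.73, 5.53 and 3.70 in WD-SCC. Only OT7 replicate 2 and OT14 of WD-SCC passed the control, and the unnumbered OT7 WD-SCC array had the lowest value of all 8. With every PD-SCC array under the control, only a bound applies, about 1.45-fold lower in PD-SCC on average. It is approximate, as the WD-SCC readings under the control entered their mean as read. The measured means differed by -1.11 ± 0.48, and by -0.71 without lineage OT14.

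Tie1, the orphan receptor that modulates Tie2 signalling, had the largest gap between the stages among the 9 genes. It read 3.67, 3.34, 3.45 and 3.51 in PD-SCC, all under the control, against 5.40, 7.55, 7.98 and 8.30 in WD-SCC, all above it. No values overlapped, and this was the gene of the set that most clearly passed the control on the unnumbered OT7 WD-SCC array. The bound for PD-SCC was at least 12.2-fold lower, and the measured means differed by -3.81 ± 0.58.

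Tek, the Tie2 receptor that binds angiopoietins, was not detected above the control on any array. It read 3.24, 3.07, 3.28 and 3.25 in PD-SCC, against 3.39, 3.53, 3.64 and 3.24 in WD-SCC. The values overlapped and no fold applies. Tie1 and Tek thus differed in detection on the same 4 WD-SCC arrays, although their levels come from different probes and cannot be ranked.

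Robo4, the endothelial Roundabout receptor that helps keep vessels tight, read 3.45, 3.23, 3.34 and 3.11 in PD-SCC, against 3.27, 4.67, 7.82 and 4.53 in WD-SCC. The OT14 WD-SCC array stood well above the other 7, OT7 replicate 2 and OT15 passed their controls narrowly, and the unnumbered OT7 array lay among the PD-SCC values. The bound here came to about 2.61-fold lower in PD-SCC. It too is approximate, as the unnumbered OT7 WD-SCC reading, under its control, entered the mean as read. The measured means differed by -1.79 ± 0.73. Without lineage OT14 the difference was -0.90.

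Egfl7, a secreted protein that endothelial cells lay down in their matrix, was read by 3 probe sets that kept the same order of stages. The probe set with the highest mean read 3.94, 3.97, 4.48 and 4.13 in PD-SCC, against 4.67, 5.50, 6.52 and 7.62 in WD-SCC. The second read 3.86, 3.90, 3.97 and 3.81 in PD-SCC, against 4.24, 5.09, 6.24 and 6.73 in WD-SCC. On both, OT15 was the highest WD-SCC array. The third read 3.75, 3.49, 3.79 and 3.47 in PD-SCC, against 4.12, 4.62, 5.65 and 5.08 in WD-SCC, with OT14 highest. The stages did not overlap on any of the 3, with differences of -1.95 ± 0.44, -1.69 ± 0.43 and -1.24 ± 0.25.

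Emcn, endomucin, a sialomucin of veins and capillaries, read 3.52, 3.69, 3.88 and 3.57 in PD-SCC, against 3.36, 6.20, 6.92 and 3.82 in WD-SCC. It was bright on OT7 replicate 2 and OT14 of WD-SCC alone. The OT15 WD-SCC array was under its control for Emcn while it was near the top for Pecam1, Tie1 and Egfl7. The difference was -1.41 ± 0.73, and it was -0.87 without lineage OT14 and -0.89 without OT7 WD-SCC replicate 2.

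In the fit over all genes (limma with lineage as a block, Benjamini-Hochberg adjustment), 3 of the 9 genes, Tie1, Egfl7 and Cldn5, passed an adjusted p of 0.05 as lower in PD-SCC and none as higher, where 4.81% of all genes passed as lower and 7.78% as higher. Over probe sets, 3 of 12 passed as lower (1 each of Tie1, Egfl7 and Cldn5) against 2.84% of all probe sets. The stages did not overlap for 4 genes, against 13.3% of all genes. The genes were picked from this contrast, so nothing is read from these counts. They rest on few arrays. Without lineage OT15 the differences were -2.23 for Pecam1, -3.02 for Cdh5, -3.49 for Tie1, -1.43 for Egfl7, -1.23 for Cldn5, -1.23 for Esam, -1.92 for Robo4 and -1.80 for Emcn. Without lineage OT15 or without OT14, 1 of the 9 passed. Leaving out the unnumbered OT7 WD-SCC array raised the count to 5.

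Within each lineage PD-SCC was the lower stage for the 8 genes other than Tek, although Emcn and Esam were under the control at both stages in OT15 and give no fold there. Tek gives none in any lineage. Where PD-SCC was under the control, values raised to it give a bound on the difference. In OT14 Cdh5 differed by -4.89 as measured, and the bounds were -4.37 for Tie1 and -4.21 for Robo4. In OT15 the bounds were -4.48 for Tie1 and -3.59 for Pecam1, and Egfl7 differed by -3.49 and Cdh5 by -1.08 as measured. In OT7, where the unnumbered WD-SCC array entered the mean, the bound for Tie1 was -2.80, and Cdh5 differed by -2.09, Pecam1 by -1.68 and Egfl7 by -1.13. No gene passed the stage by lineage interaction test (limma F test, adjusted p 0.374 to 0.861; 0 of all genes passed, 0%), and at an unadjusted p of 0.05 Egfl7 and Robo4 did, where 11.9% of all genes did. The difference between lineages at equal stage gave 0 of the 9 genes (adjusted p 0.744 to 0.899; 0% of all genes), and none of the 9 at an unadjusted p of 0.05, where 7.32% of all genes passed. The interaction had 2 residual degrees of freedom, both from the OT7 pairs. It is built from the stage contrast that chose the 9 genes, so nothing is concluded from it for them.

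**Figure D2:**
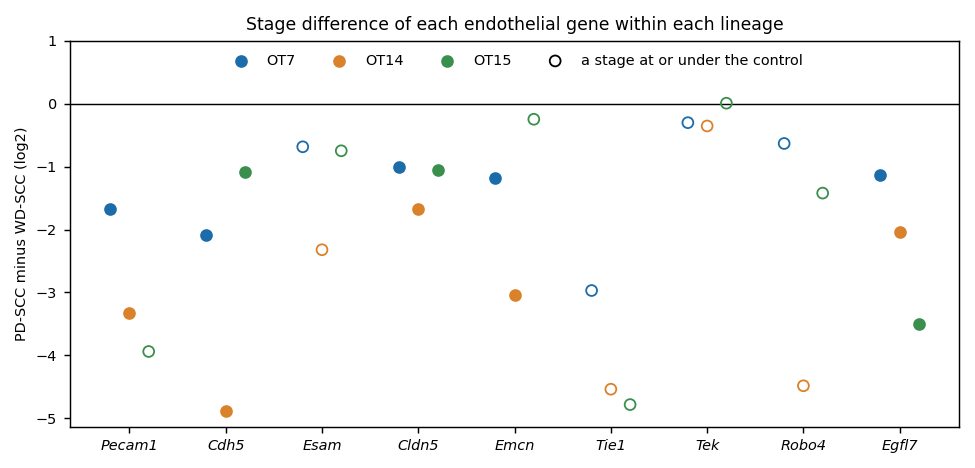
PD-SCC minus WD-SCC (log2) for the probe set with the highest mean of each of the 9 genes within lineages OT7 (means of 2 arrays per stage), OT14 and OT15 (1 array per stage). Open points have every array of a stage at or under its control, so their size is not measured; Cdh5 differed by -4.89 in OT14 and by -1.08 in OT15.

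The OT7 WD-SCC arrays differed from each other in part of the endothelial genes and in some genes of other lists. OT7 replicate 2 exceeded the unnumbered array by more than 1 log2 unit for 6 of the 9 genes, against 6.16% of all genes, with a median difference of 1.79 for the 9 and a median absolute difference of 0.25 over all genes. None of the 9 differed that much in either direction between the 2 OT7 PD-SCC arrays. Among 44 other endothelial genes 12 were higher by that much on OT7 replicate 2 and none lower. Of 7 lymphatic endothelial genes and 11 pericyte genes none was higher, with 1 pericyte gene lower, and of 19 leukocyte genes 4 were lower and none higher, where 3.38% of all genes were lower. Of 8 platelet and red cell genes 2 were higher (Pf4 by 2.61 and Ppbp by 2.64), as were 3 of 12 ligands and partners (Angpt2, Ctnnd1 and Tjp1, named after their values were seen), and no keratinocyte gene of 11 differed that much. Cd34 and Itga6 were near equal on the 2 arrays, as given above. Between the 2 OT7 PD-SCC arrays, 4 of 19 leukocyte genes were likewise lower on replicate 2 and none higher. Also lower there were 1 of 8 platelet and red cell genes and 1 of 11 keratinocyte genes. The share of all genes lower there was not computed. Higher there were 2 of 44 other endothelial genes, 2 of 12 ligands and partners and 1 of 11 pericyte genes, with none of these lists lower. Of all genes 2.30% were higher. Whether the OT7 WD-SCC arrays differ in endothelial depletion was not tested.

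The OT15 WD-SCC array also differed from the OT14 WD-SCC array. Of the 9 genes, Egfl7 was higher in OT15 by more than 1 log2 unit, where 2.77% of all genes were higher. Robo4, Emcn and Esam were lower by that much, where 5.33% of all genes were lower. Of the 44 other endothelial genes, 9 were lower in OT15 and none higher, while 2 of the 7 lymphatic genes were higher and none lower. The lower values were not confined to endothelial genes, as 6 of 19 leukocyte genes, 4 of 11 keratinocyte genes and both sort markers (differences of -3.29 for Cd34 and -2.22 for Itga6) were also lower in OT15, with none of these lists higher. Of 11 pericyte genes 2 were higher and 1 lower, of 12 ligands and partners 1 was higher and none lower, and of 8 platelet and red cell genes 1 was lower.

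**Figure D3:**
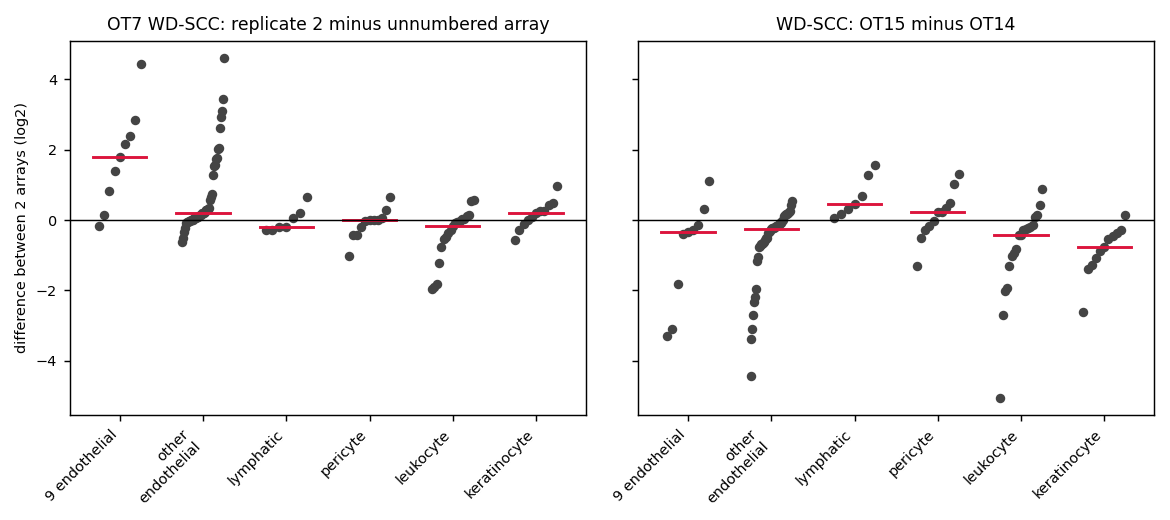
Log2 difference between pairs of WD-SCC arrays for each gene of 6 marker lists, OT7 replicate 2 minus the unnumbered array on the left and OT15 minus OT14 on the right; red bars are list medians. On the left the 9 endothelial genes have a median of 1.79 and the lymphatic genes of -0.20; on the right the medians are -0.33 and 0.47.

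A wider list of endothelial genes was then read for the same contrast. Of 45 genes, 44 were measured and 33 exceeded the control on at least 1 array. All 44 had a lower mean in PD-SCC, as did 9886 of 17097 genes, with a median of -0.55 against -0.06 over all genes. The control itself differed by -0.42 (PD-SCC minus WD-SCC), so small differences of genes near it are not read as change. After adjustment over all genes 4 fell in PD-SCC and none rose, where 4.81% of all genes fell. The stages did not overlap for 20 of the 44, where 13.3% of all genes did not. These include genes above the control on no array, Vwf among them, whose differences are not measured. The control too was lower on every PD-SCC array. The direction was known from earlier results of these arrays, so the list is no independent evidence of it.

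The 4 that fell were Ushbp1, Eng, Aplnr and Sox18. Ushbp1 read 4.64, 4.66, 4.85 and 4.89 in PD-SCC, against 5.64, 5.61, 5.55 and 5.70 in WD-SCC, with a difference of -0.87 ± 0.09 (limma, adjusted p = 0.00651). Its WD-SCC values were level, the unnumbered OT7 array included. Eng, endoglin, a TGF-beta co-receptor of proliferating endothelium, averaged 5.34 ± 0.30 in PD-SCC and 6.21 ± 0.35 in WD-SCC (SD, n = 4 each), a difference of -0.87 ± 0.19 (limma, adjusted p = 0.0384). A second Eng probe set read 3.58, 3.32, 3.28 and 3.48 in PD-SCC, against 3.95, 5.98, 6.28 and 5.88 in WD-SCC, and so was under the control on all PD-SCC arrays and on the unnumbered OT7 WD-SCC array. Sox18, a transcription factor of developing vessels, read 3.44, 3.50, 3.66 and 3.76 in PD-SCC, against 4.11, 5.66, 7.74 and 6.71 in WD-SCC (difference -2.47 ± 0.57, limma, adjusted p = 0.0465). Aplnr, the apelin receptor, fell by 0.51 ± 0.11 (limma, adjusted p = 0.0410), where the control itself differed by -0.42. A second Aplnr probe set passed the control on the OT14 WD-SCC array alone. Without lineage OT15, 2 of the 44 passed. Leaving out the unnumbered OT7 WD-SCC array raised the count to 8, leaving out any other single array lowered it to 1 or 2, and averaging the OT7 arrays of a stage lowered it to 0.

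Several endothelial genes did not pass the stage test on the probe set that stood for them. Ramp2, the receptor partner for adrenomedullin, averaged 11.6 ± 0.26 in PD-SCC and 11.9 ± 0.21 in WD-SCC (difference -0.36 ± 0.18, limma, adjusted p = 0.220), while another of its probe sets read 3.86, 4.01, 4.0 and 3.66 in PD-SCC, against 5.59, 5.38, 6.01 and 7.02 in WD-SCC. The remaining Ramp2 probe set read 10.4, 10.2, 10.01 and 9.74 in PD-SCC, against 10.4, 10.6, 10.6 and 11.2 in WD-SCC, where the stages did not overlap either, though by little. The probe sets of Ramp2 thus disagree in size. Rhoj differed by -0.87 ± 0.45 (limma, adjusted p = 0.237) and Rasip1, a junctional Rap1 and Ras effector, by -1.53 ± 0.73 (limma, adjusted p = 0.212), both above the control on all 8 arrays. Flt1, VEGF receptor 1, read 6.17, 5.33, 6.56 and 6.26 in PD-SCC, against 6.50, 8.24, 7.37 and 5.04 in WD-SCC, and so spanned the PD-SCC range. Kdr, VEGF receptor 2, read 4.28, 3.99, 4.41 and 3.96 in PD-SCC, against 4.19, 4.85, 7.59 and 4.90 in WD-SCC (difference -1.23 ± 0.51, limma, adjusted p = 0.164), with OT14 again the bright array. Vwf, the clotting factor carrier stored in endothelium, was not above the control on any array.

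Some genes of this list followed Emcn and Esam, and were chosen after their values were seen. Selp, P-selectin of activated endothelium and platelets, read 3.95, 3.87, 3.52 and 3.62 in PD-SCC, against 3.84, 8.46, 9.24 and 5.85 in WD-SCC. Cd93 read 3.15, 3.13, 3.62 and 3.15 in PD-SCC, against 3.22, 6.66, 7.44 and 2.99 in WD-SCC. Mmrn2, a matrix partner of CD93, read 4.38, 4.06, 4.08 and 4.29 in PD-SCC, against 3.20, 6.29, 7.09 and 4.0 in WD-SCC. All 3 were high on OT7 replicate 2 and OT14 of WD-SCC, and Cd93 and Mmrn2 were under the control on the OT15 and unnumbered OT7 WD-SCC arrays. None passed the test.

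Some lymphatic endothelial genes set the WD-SCC arrays in another order than Emcn and Cd93. A peak on OT15 was not particular to them. Tie1 and the brightest Egfl7 probe set were also highest there among WD-SCC arrays, although Tie1 was high on OT7 replicate 2 as well (7.55). Lyve1, the hyaluronan receptor of lymphatic endothelium, read 3.65, 3.65, 3.83 and 3.83 in PD-SCC, against 4.30, 4.51, 7.49 and 8.76 in WD-SCC. Flt4, VEGF receptor 3, chosen after its values were seen, read 3.78, 3.46, 3.74 and 3.72 in PD-SCC, against 4.63, 4.43, 6.77 and 8.32 in WD-SCC. Both were highest on OT15, where Emcn and Cd93 were under the control, and both were low on OT7 replicate 2, where Emcn was 6.20. Prox1, the transcription factor that sets lymphatic identity, read 3.52, 4.11, 3.73 and 4.24 in PD-SCC, against 3.57, 3.29, 4.68 and 5.37 in WD-SCC, again higher on OT14 and OT15 of WD-SCC.

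None of the 7 measured lymphatic genes passed the stage test (limma, 0 of 7, smallest adjusted p = 0.0536, 5 of 7 at an unadjusted p of 0.05, where 31.9% of all genes passed), and their median difference was -1.03. Without OT7 WD-SCC replicate 2, 1 of the 7 passed, and without lineage OT15 none did. The stage by lineage interaction passed adjustment for none of them (smallest adjusted p = 0.181), with 5 of 7 at an unadjusted p of 0.05, where 11.9% of all genes passed. For Lyve1 that unadjusted p was 1.96e-04. At an unadjusted p of 0.05 the interaction gave 6 of the 44 other endothelial genes.

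**Figure D4:**
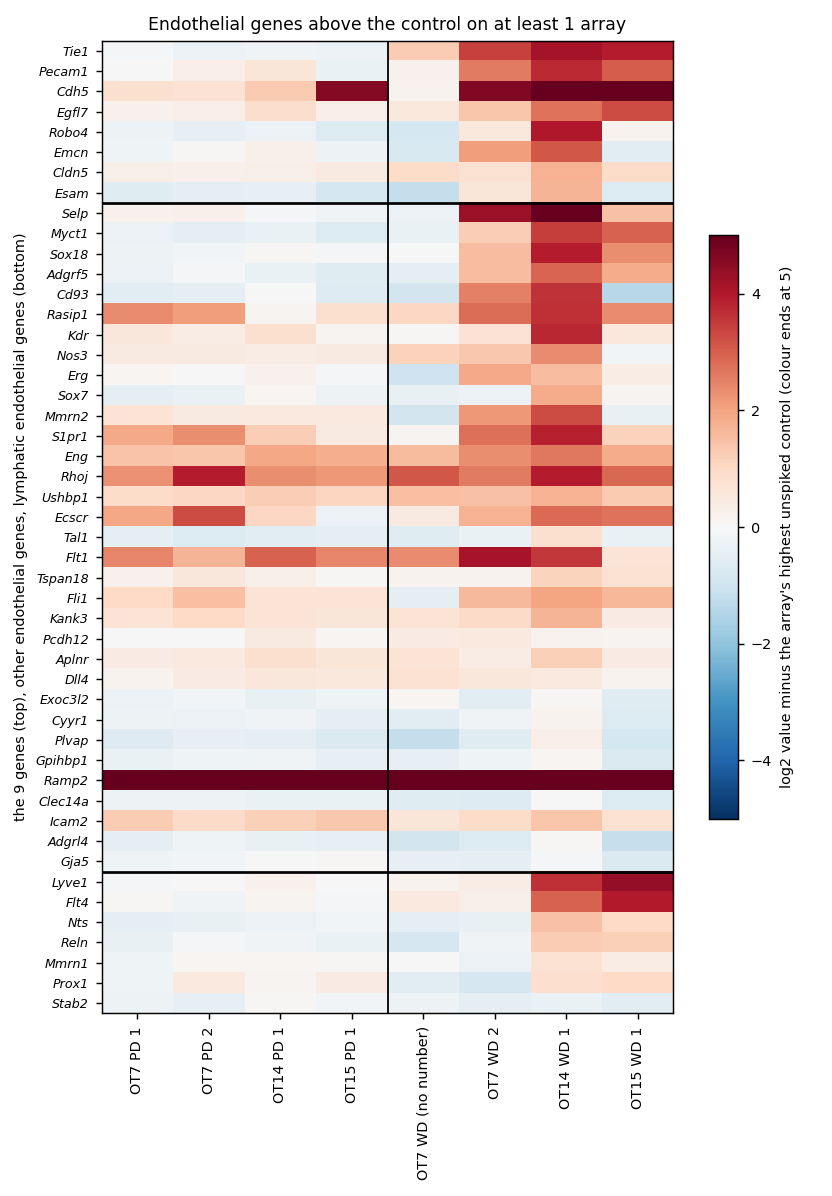
Log2 value minus the array's highest unspiked control for the endothelial genes above it on at least 1 array, PD-SCC left of the black line and WD-SCC right, in 3 blocks from top to bottom (genes of the 9, other endothelial genes, lymphatic genes), each ordered by the stage difference. The upper blocks are red on OT7 replicate 2 and OT14 of WD-SCC, and in part on OT15, as for Cdh5, Tie1, Pecam1 and Egfl7. Lyve1 and Flt4 are red on OT14 and OT15 of WD-SCC.

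Markers of other cells moved with the endothelial genes in part. Ptprc, the pan-leukocyte CD45 gene, was not above the control on any array. Of 19 leukocyte genes, with a median of -0.67, 3 fell in PD-SCC (Fcer1g, Cd52 and Cd68) and none rose. Of all genes 4.81% fell. The count of 3 became 1 without either OT7 PD-SCC array and 0 without lineage OT7 or with the OT7 arrays averaged. Cd68, a lysosomal protein of macrophages, read 4.92, 3.78, 5.90 and 5.29 in PD-SCC, against 7.86, 7.81, 7.48 and 7.91 in WD-SCC (difference -2.79 ± 0.41, limma, adjusted p = 0.0141), and so was as high on the unnumbered OT7 WD-SCC array as on the others. The mean level of the leukocyte list was 3.74 to 4.12 in PD-SCC and 4.42 to 5.28 in WD-SCC. Their part in the endothelial difference was not tested.

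Of 8 platelet and red cell genes 1 fell in PD-SCC and none rose (median -0.31), where 4.81% of all genes fell. It was Ppbp, pro-platelet basic protein, which read 3.48, 3.27, 3.14 and 3.46 in PD-SCC, against 7.39, 10.03, 11.24 and 10.43 in WD-SCC, at least 67.6-fold lower in PD-SCC (limma, adjusted p = 0.00763). Pf4, platelet factor 4, read 4.60, 3.70, 4.22 and 3.74 in PD-SCC, against 3.76, 6.37, 6.74 and 5.13 in WD-SCC, and did not pass (limma, adjusted p = 0.187). The unnumbered OT7 WD-SCC array was the lowest of its stage for both. The mean level of the list was 4.10 to 4.51 in PD-SCC and 4.77 to 5.77 in WD-SCC, and its part in the endothelial difference was not tested.

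Of 11 pericyte and mural genes none passed the stage test (limma, median -0.32, where the control itself differed by -0.42). At an unadjusted p of 0.05, 7 did, where 31.9% of all genes did. These 7 went both ways. Acta2 was higher in PD-SCC, with the largest difference of the list (1.86 ± 0.59). Des, Kcnj8 and Higd1b were above the control on no array, so their differences are not measured. Rgs5, a pericyte marker, passed the control on the OT14 WD-SCC array alone (4.46), and Pdgfrb, the PDGF receptor of mural cells and fibroblasts, lay between 5.46 and 7.92 in PD-SCC and between 5.0 and 6.88 in WD-SCC.

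Keratinocyte genes were read beside them. Of 11 measured, 7 fell in PD-SCC and none rose, where 4.81% of all genes fell. The median of the 11 was -3.51, where the median of the 9 endothelial genes was -1.79. Krt5, a basal keratin, averaged 4.16 ± 0.17 in PD-SCC and 11.3 ± 0.49 in WD-SCC (SD, n = 4 each), and Krt14, its partner, averaged 5.73 ± 1.45 in PD-SCC and 10.7 ± 0.38 in WD-SCC. Both keratins were as high on the unnumbered OT7 WD-SCC array (11.5 and 10.8) as on OT7 replicate 2 (11.4 and 10.5), where 6 of the 9 endothelial genes differed.

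**Figure D5:**
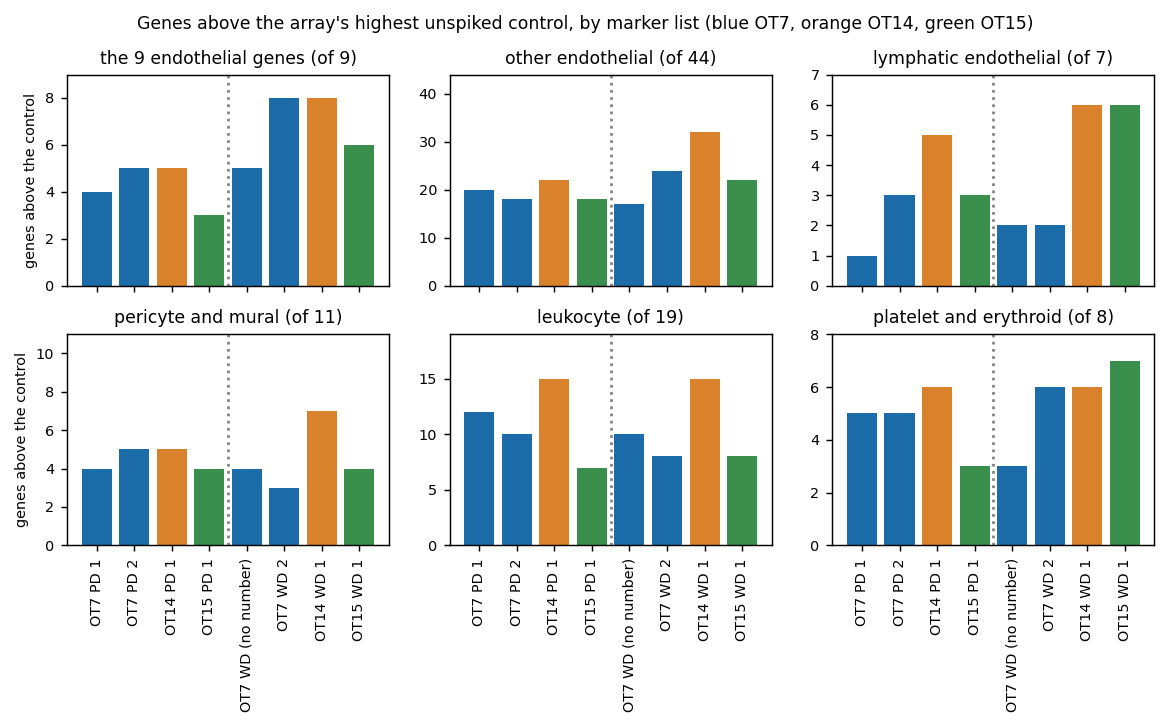
Number of genes above each array's highest unspiked control in 6 marker lists, PD-SCC left of the dotted line and WD-SCC right; each axis ends at the number of genes measured. Of the 9 endothelial genes 3 to 5 passed on PD-SCC arrays and 5 to 8 on WD-SCC arrays, and of the lymphatic genes 6 of 7 passed on OT14 and OT15 of WD-SCC.

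Ligands and junction partners of the 9 genes were read last. Of 12 measured, Jup and Angpt4 fell and none rose (median -0.45), where 4.81% of all genes fell. Jup, plakoglobin, which binds VE-cadherin in endothelium and desmosomal cadherins in keratinocytes, averaged 6.77 ± 0.78 in PD-SCC and 9.71 ± 0.43 in WD-SCC (SD, n = 4 each; difference -2.94 ± 0.38, limma, adjusted p = 0.0103). Angpt4, an angiopoietin, fell by 0.37 ± 0.09 (limma, adjusted p = 0.0490) at values near the control, above which it lay on 1 array of each stage. The control itself differed by more (-0.42), so this fall is not read as change.

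The other ligands were chosen after their values were seen. Angpt2, the angiopoietin released by activated endothelium, read 3.61, 3.71, 3.36 and 3.21 in PD-SCC, against 3.25, 4.48, 7.01 and 6.77 in WD-SCC (limma, adjusted p = 0.150), bright on OT14 and OT15. Angpt1, the Tie2 agonist made by mural and stromal cells, read 4.51, 5.86, 3.34 and 3.18 in PD-SCC, against 3.14, 3.21, 2.86 and 3.26 in WD-SCC (limma, adjusted p = 0.182), and passed the control on the 2 OT7 PD-SCC arrays alone. Slit2, a secreted ligand of the Roundabout family, read 5.25, 7.32, 3.90 and 5.59 in PD-SCC, against 3.39, 3.12, 3.24 and 3.30 in WD-SCC, under the control on all WD-SCC arrays, so that PD-SCC was at least 2.64-fold higher on average (limma, adjusted p = 0.0637). Of the endothelial, ligand and partner genes named here, Slit2 and Angpt1 were the ones with higher values in PD-SCC.

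Over the 8 arrays, the mean profile of the 9 genes was -1.05, -1.11, -0.89 and -0.67 in PD-SCC, against -0.66, 1.10, 2.08 and 1.19 in WD-SCC (log2, centred on its own mean). The distance of each gene's centred profile from it was taken as the root mean square over the 8 arrays, for the 774 genes outside the set that exceeded the control on at least 4 arrays and whose SD over the arrays was at least that of the profile (1.25). The closest 8 were Prkch, Rnf222, Ccdc120, Ttc9, Aldh3b2, Vps37b, Gltp and Cidea, at 0.33 to 0.43 log2. Among the 9 themselves the distance ran from 0.53 for Esam to 1.44 for Cdh5. Of the 774 candidates 5 were in the wider endothelial list, and 3 of these were among the closest 100. None of the closest 8 was in any of the marker lists.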

How the data were processed

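RNA of 8 samples of sorted tumour cells was labelled and hybridised to Affymetrix arrays. The deposited table gives each probe set a log2 expression value for every array, which the authors made with affy and RMA, per the submitters' processing notes. Tool versions, the chip definition and the set of arrays that shared 1 normalisation were not given in the sources used here, and scanner files were not used here. RMA sets all arrays to 1 distribution and compresses low values, so differences near the control can understate change. They can also overstate it, as the control, with no RNA spiked, itself differed by -0.42 log2 (PD-SCC minus WD-SCC).

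The 45141 probe sets held 104 controls; 28898 had 1 gene symbol, 551 several and 15588 none. Symbols were brought up to date with RefSeq by Entrez number (matched for 99.06% of 17097 genes), and a gene's brightest probe set on average stood for it. Groups and lineages came from the labels; pairing is by lineage, since 1 OT7 WD-SCC array has no replicate number. The stage effect was fitted with limma 3.58.1 in R 4.3.3 (lmFit and eBayes, lineage as a fixed block, 4 residual degrees of freedom, two-sided, Benjamini-Hochberg over all genes, threshold 0.05); lineage and interaction terms were tested with limma's F tests. The scripts were tested on simulated data. Python 3.11.15 with pandas 2.3.3 and scipy 1.17.1 made the tables and the exact test. A gene at or under the control on every array of a stage was given a bound. This set the bright stage's mean against the dim stage's mean of the higher of control and gene on each array. Readings of the bright stage under the control entered its mean as read, which makes such a bound approximate. The number of arrays limits the precision.

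The 9 genes and all lists were chosen with earlier results of these arrays known. The genes named are every probe set of the 9, the endothelial genes of smallest adjusted p past the threshold (up to 6) and of highest mean (4), ligands and partners past the threshold, a fixed set of sort, lineage and cell type markers (Cd34, Itga6, Kdr, Flt1, Eng, Vwf, Ptprc, Cd68, Pf4, Rgs5, Pdgfrb, Lyve1, Prox1, Krt5 and Krt14), and the 8 genes closest in profile. Fcer1g, Cd52, Ppbp, Selp, Cd93, Mmrn2, Flt4, Angpt1, Angpt2, Slit2, Ctnnd1, Tjp1, Acta2, Des, Kcnj8 and Higd1b were named after their values were seen. The alternatives were other blocks, probe set choices, filters, normalisations, control levels and priors, and leaving out each array or lineage.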

Additional observations from a re-analysis of the deposited data

Results flagged for a closer look

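Among 48 groups of 4 arrays (24 genes at each stage), 2 held an array far from the other 3, where chance alone gives about 1 in 20. Cdh5 was 8.39 on the OT15 PD-SCC array, against 4.36 to 4.91 on the other PD-SCC arrays. Its second probe set was also highest there among PD-SCC arrays (4.28), while Pecam1 (3.47) and Tie1 (3.51) on that array were under its control of 3.81. Cd34 was 3.58 on the OT15 WD-SCC array, against 6.72 to 7.0 on the other WD-SCC arrays. Without lineage OT15 the Cdh5 difference was -3.02 ± 1.32 and that of Tie1 -3.49 ± 0.67 (PD-SCC minus WD-SCC, log2 ± SE).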

How the results depend on the processing

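The differences of the 9 genes were recomputed in 195 combinations of gene and alternative. The sign was kept in 194, the exception being Tek at 0.18 after each array's control was subtracted. By less than 1 residual SD moved 188. Many could not move. Other blocks, the filter, the prior and the probe set with the largest SD left the estimates unchanged. Leaving out either array of OT14 or of OT15 gave the same fit as leaving out that lineage. As the genes were picked from this contrast, nothing is read from these counts. Of the 44 other endothelial genes, 4 were lower in PD-SCC. The count was 7 with lineage as a random block, 0 with the OT7 arrays averaged, 8 when the probe sets of a gene were averaged, 12 with the 75th percentiles set equal, 33 with values raised to the control, 10 with a trended and robust prior, 2 without any 1 of the 3 lineages and 1 to 8 without any 1 array; without the replicate block it was 5. Of the 7 lymphatic genes 0 were lower, and the count was 2 among genes above the control on 4 or more arrays, 4 with the 75th percentiles set equal, 7 with values raised to the control, 4 with a trended and robust prior and 0 to 1 without any 1 array, the 1 arising without OT7 WD-SCC replicate 2. The control itself was higher on WD-SCC arrays, so raising values to it lowers every dim gene in PD-SCC by construction; it moved the median of all genes to -0.38. That median was -0.06 as reported, -0.21 with the 75th percentiles set equal and 0.36 after the control was subtracted. Among the 9 genes the count lower in PD-SCC was 3 and ranged from 1 (OT7 arrays averaged, or without OT14 or OT15) to 7 (values raised to the control). The count over all genes lower in PD-SCC, 823, became 8325 with values raised to the control, 199 with the OT7 arrays averaged and 194 without lineage OT7, and the count higher, 1331, became 5910 after the control was subtracted, 794 under cyclic loess, 202 with the OT7 arrays averaged and 52 without lineage OT7. Of 96 readings of the 12 probe sets 60 exceeded the control, and 24 exceeded it by 1 log2 unit, so most readings lie near the limit of detection. Where no construction is given, the cause was not tested.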
